A study of Mus musculus with 10 samples.

Results

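The 10 genes Klrd1, Gzmb, Gzma, Prf1, Nkg7, Il2rb, Lck, Lat, Thy1 and Cd2, which serve signalling and killing in T cells and natural killer (NK) cells, were examined in hematopoietic progenitor cells of mouse bone marrow. They were chosen by symbol, and all 10 had a row among the 12791 genes of the authors' deposited table. The study sequenced RNA of lineage-negative, c-Kit-positive, Sca-1-negative cells from C57BL/6 mice. Its 10 libraries fall into 3 groups: 3 KDR-positive libraries and 4 KDR-negative libraries from mice that carried GL261, a mouse glioma line, at week 4, and 3 libraries from naive, tumor-free mice. The growth factor receptor KDR was read through GFP knocked into its gene, so KDR-positive means GFP-positive. Whether the naive mice carried the knock-in, and whether libraries came from separate or pooled mice, is not stated in the sources at hand, so p-values speak only for these samples.

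The table holds 2 comparisons between groups and no value per library, so no standard deviation stands beside a value below. Its header names neither the groups compared nor the direction. The comparisons are called the first and the second, in column order, and the group in which a gene with a positive log2 fold change is higher is called the numerator group. The denominator side is the same group in both: levels derived for it from each comparison differed by a median absolute deviation of 0.0023 (log2) over 9044 genes, against 0.051 for the next closest pair of sides. No group label was put on any side, and the fold changes of the comparisons are therefore given side by side, without a test of their likeness.

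T cells and NK cells kill by releasing granules that hold perforin, which opens membranes, and granzymes, proteases that enter the target and start cell death. NK cells weigh signals from activating and inhibitory receptors, and interleukin-15 keeps them alive. T cells start from the antigen receptor, whose CD3 chains are phosphorylated by the kinase LCK before the signal passes to the scaffold LAT. Mature cells of both kinds are normally removed from progenitor sorts by lineage antibodies, but several of these genes are also used outside T and NK cells, LAT by platelets among them.

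In the first comparison 5 of the 10 were lower in the numerator group, 2 were higher at an adjusted p under 0.05 and 3 did not pass. Among all genes of the authors' deposited table, 22.3% passed, 3.49% as lower and 18.8% as higher, and 30.8% had an unadjusted p under 0.05. The median log2 fold change of the 10 genes was -2.69, beside -0.13 over all genes. Lower were Klrd1, Gzmb, Il2rb, Lck and Thy1. The higher genes were Lat and Nkg7, of which Nkg7 was lower once the levels of both groups were scaled to the same total. In the second comparison none of the 10 passed, and in all the authors' deposited table had 14 such genes, 0.109% of those tested, 0.0704% as higher and 0.0391% as lower. None of the 10 had an unadjusted p under 0.05 there either, as 0.336% of all genes did, and their smallest was 0.127 for Il2rb. Their median log2 fold change in the second comparison was -0.76, with 9 of 10 genes below 0. Over all genes the median was 0.00, with 6341 of 12791 below 0. Among the 4296 genes with a mean of 1 to 4 log2 CPM in the first comparison, the second-comparison median was -0.055, with 63.7% below 0.

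**Figure D1:**
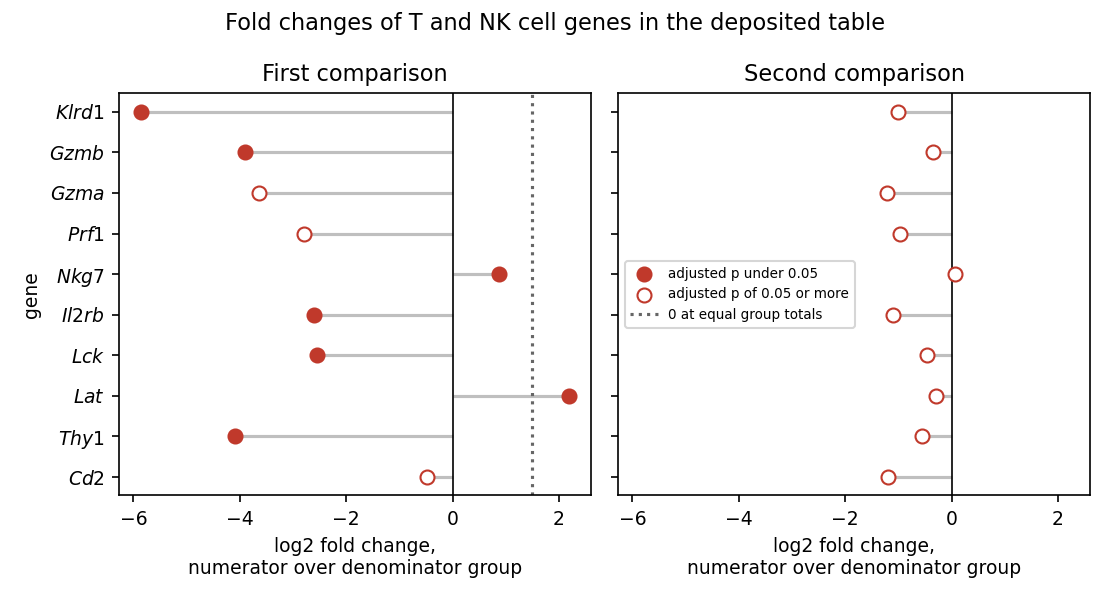
Log2 fold change (numerator over denominator group) of each gene in the first comparison, left, and the second, right. Filled points passed an adjusted p of 0.05, and the dotted line marks where 0 would lie at equal group totals. In the first comparison 5 filled points lie left of 0, and Lat at 2.20 is the 1 gene right of the dotted line, since Nkg7 at 0.88 turns to -0.61 at equal totals.

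Facts of the whole table bear on these values. First, the CPM levels derived for the first comparison sum to 2127125 in the numerator group and 756537 in the denominator group, a difference of 1.49 on the log2 scale. At equal totals the 2847 genes called in the first comparison split into 1394 higher and 1453 lower, beside 2401 and 446 on the deposited scale. No gene was tested again at equal totals, so genes without a call on the deposited scale are not in these counts. Second, among the 4296 genes with a mean of 1 to 4 log2 CPM, where 6 of the 10 genes lie, the median log2 fold change of the first comparison was -0.58, with 4.4% of genes lower and 6.54% higher. The part that level plays in the fold changes of the 10 genes was not tested.

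Few sequencing reads stand behind most of these genes. The deposited p-values of low genes fall on steps: of 2028 genes under 2 log2 CPM in the first comparison, 92.3% share 20 values, and 884 of the 2028 have a p of 1. Such steps arise where a small whole number of reads is split between groups and tested by exact counting. For 98.6% of 773 genes under 1.5 log2 CPM with a p under 0.99, the deposited p lay within 0.5% of the doubled binomial tail of some split of reads between 2 groups of equal size, with the number of reads set by the level. With a split of 4 to 3 the share was 0.6%. In the second comparison a split of 4 to 3 matched 87.6% of 524 such genes, and an equal split 0.6%. On this scale a read of either group was worth 0.32 CPM of the mean level over both groups for the first comparison and 0.25 CPM for the second. These values do not apply to the levels derived for single groups. The authors' test is not named in the sources at hand, so the read numbers below are those whose exact p matches the deposited p, scaled as the authors scaled their libraries, and are not counts given in the table.

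**Figure D2:**
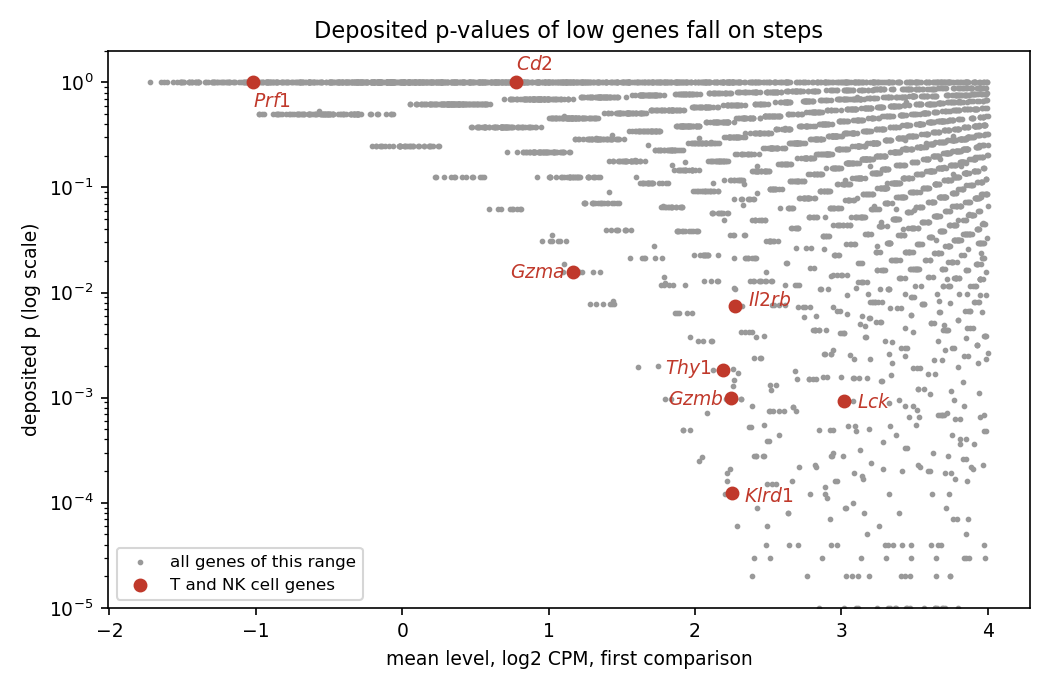
Deposited p-value (log scale) against mean level (log2 CPM) in the first comparison, for genes under 4 log2 CPM, with 8 of the T and NK cell genes in red. Grey points lie on horizontal steps, and Gzma sits on the step at 0.0157, Prf1 and Cd2 on the step at 1.

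For 8 of the 10 genes a split of reads matched the deposited p within 1.16% for the first comparison and within 0.27% for the second. Together they had 10 reads in the numerator group and 86 in the denominator group of the first comparison, and 76 and 93 reads in the numerator and denominator groups of the second, over 4 and 3 libraries by the split that matched. The denominator group was counted in both, and its numbers differed by at most 2 reads for any gene. The limit for a match of these genes was 1.5%, wider than the 0.5% above. In the first comparison deposited p-values under 1 lay slightly above the exact ones, by 1.16% for Lck. A binomial split has no term for spread between libraries, so p-values this close to it hold little allowance for differences between libraries. In the first comparison the other 2 genes lay further from counting error alone. Lat with about 207 reads and Nkg7 with about 482 reads in the first comparison had deposited p-values of 2.39e-16 and 0.00162, against 1.44e-21 and 9.9e-11 for counting error alone.

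**Figure D3:**
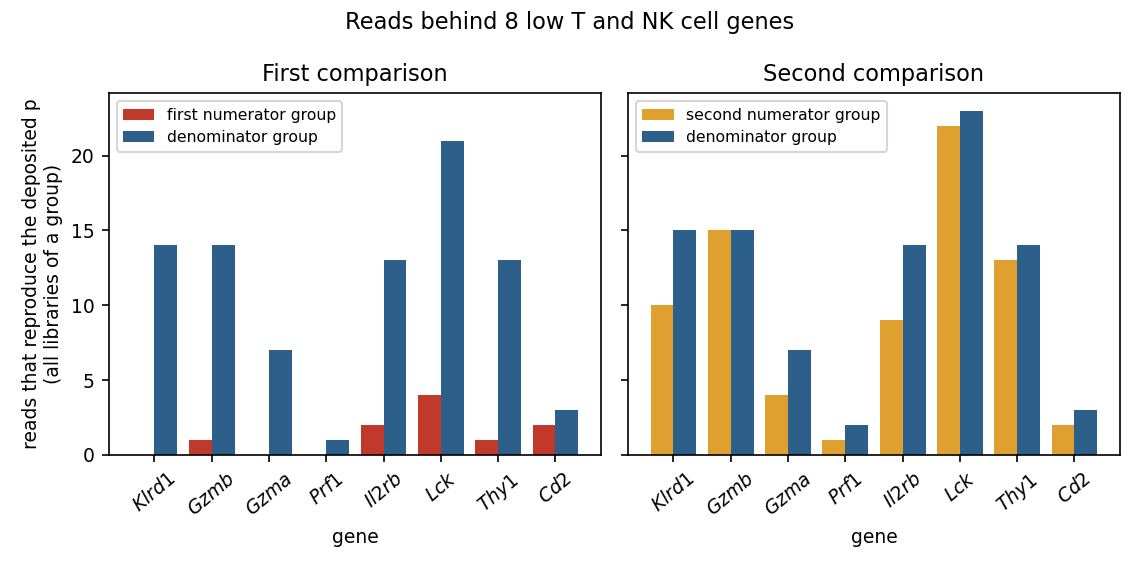
Reads per group, summed over libraries, matched to the deposited p of 8 genes in the first comparison, left, and the second, right. In the first comparison the numerator group has 0 to 4 reads and the denominator group 1 to 21, and in the second, where 4 libraries stand against 3, Klrd1 has 10 and 15 reads (ratio per library 0.5) and Lck 22 and 23 (0.717).

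Klrd1 encodes CD94, a lectin-like receptor that pairs with NKG2 proteins on NK cells and binds the nonclassical MHC molecule Qa-1 in mice. Its derived level was 0.155 CPM in the first numerator group, 4.55 CPM in the second numerator group and 9.02 CPM in the denominator group. It was near 0 in the first numerator group, and between the other groups the counting interval of the ratio includes 1. The log2 fold change was -5.86 per the authors' deposited table (adjusted p = 0.00091), which matches 0 reads in the numerator group against 14 in the denominator group. The exact 95% interval for counting error allows a ratio of up to 0.301, so the size of the fitted fold change is uncertain. Between the second pair of groups the log2 fold change was -1.001 per the authors' deposited table (adjusted p = 1). It matches 10 and 15 reads over 4 and 3 libraries, a ratio of 0.5 per library with an exact 95% interval of 0.201 to 1.19 that covers counting error only. Klrd1 had the lowest adjusted p of the 5 lower genes.

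Granule genes divided. Gzmb and Gzma encode granzymes B and A, and both had their lowest derived level in the first numerator group. Gzmb stood at 0.574, 6.84 and 8.58 CPM in the first numerator, second numerator and denominator groups. Its log2 fold changes were -3.90 (adjusted p = 0.0059) and -0.34 (adjusted p = 1) per the authors' deposited table. The first matches 1 read in the numerator group against 14 in the denominator group, a ratio of 0.0714 with an exact 95% interval of 0.00169 to 0.469 for counting error. The second matches 15 reads on each side of the 4 to 3 split, a ratio of 0.75 per library (0.342 to 1.65).

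Gzma stood at 0.322, 1.75 and 4.02 CPM in the first numerator, second numerator and denominator groups. Its log2 fold change of -3.64 in the first comparison of the authors' deposited table did not pass (adjusted p = 0.0658), on 0 reads against 7, where the exact 95% interval for counting error allows a ratio of up to 0.694. For the second comparison the authors' deposited table had -1.22 for Gzma (adjusted p = 1), on 4 reads against 7, a ratio per library of 0.429 (0.092 to 1.69). Gzma overlaps Cdc20b in the RefSeq annotation of GRCm38, so reads of these genes may not be told apart.

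Prf1, the perforin gene, was barely detected, at 0.121, 0.456 and 0.836 CPM in the first numerator, second numerator and denominator groups. Its log2 fold changes of -2.79 and -0.97 per the authors' deposited table had p-values of 1 and 0.787. They match 0 reads against 1 and 1 read against 2, so no fold is given and no difference was detectable at this depth.

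Nkg7, which encodes a membrane protein of cytotoxic granules, was the most abundant of the 10 in all 3 groups per kilobase of transcript, at 230, 129 and 125 CPM per kilobase in the first numerator, second numerator and denominator groups. Without that length scaling the levels were 202, 114 and 110 CPM. The first numerator group thus stood apart from the other groups, which were close to each other. On the deposited scale the log2 fold change was 0.88 in the first comparison of the authors' deposited table (adjusted p = 0.00926), and at equal totals it was -0.61, so its direction rests on the scaling. Between the second pair of groups the authors' deposited table had 0.06 (adjusted p = 1). Nkg7 therefore differed from Gzmb, Gzma and Prf1 in depth, with about 482 reads where these have 1 to 15.

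The promoters of the granule genes at either end of this range are shown, since Gzmb and Nkg7 went opposite ways on the deposited scale, though not at equal totals. The sequences are RefSeq windows on GRCm38.p6, from 250 bases before to 50 after the annotated start, 5′ to 3′ on the gene's strand. Windows were found for 6 of the 10 genes, 7 windows in all because Lck has a pair, and none for Klrd1, Il2rb, Thy1 and Cd2. Capitals mark matches on either strand to letters known from 5 kinds of site, and no matches overlap. The letters searched were AGGAAG for ETS factors, TGTGGT for RUNX factors, TCACAC for T-box factors, AGATAA for the factors named GATA, and TATAAA for the core promoter box named TATA.
Gzmb (chr14:56262285-56262584, minus strand): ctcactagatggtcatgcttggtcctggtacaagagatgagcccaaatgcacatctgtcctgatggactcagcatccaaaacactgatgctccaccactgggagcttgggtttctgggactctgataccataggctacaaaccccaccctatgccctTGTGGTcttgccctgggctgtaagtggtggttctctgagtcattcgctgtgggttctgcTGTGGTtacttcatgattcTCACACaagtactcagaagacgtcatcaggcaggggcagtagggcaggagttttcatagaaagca
Nkg7 (chr7:43436888-43437187, plus strand): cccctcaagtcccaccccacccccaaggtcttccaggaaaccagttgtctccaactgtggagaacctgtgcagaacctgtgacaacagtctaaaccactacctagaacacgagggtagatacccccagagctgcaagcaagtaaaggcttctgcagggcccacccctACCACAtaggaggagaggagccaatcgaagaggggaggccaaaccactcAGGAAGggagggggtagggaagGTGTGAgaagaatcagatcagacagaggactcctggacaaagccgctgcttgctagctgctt
The Gzmb window holds RUNX letters at a pair of places and T-box letters once, and the Nkg7 window holds each of the ETS, RUNX and T-box letters once. Of the 7 windows of these genes 6 hold the RUNX letters, 5 the ETS letters and 4 the T-box letters, while 16.8%, 35.4% and 14.5% of all 32817 windows of the same length do. None of the 7 holds the GATA or TATA letters, which 11.2% and 13.6% of all windows hold.

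Il2rb encodes the receptor chain that interleukin-2 and interleukin-15 share. It stood at 1.33, 3.8 and 8.09 CPM in the first numerator, second numerator and denominator groups, lowest again in the first. Its log2 fold change in the first comparison of the authors' deposited table was -2.60 (adjusted p = 0.0353), on 2 reads against 13. That is a ratio of 0.154 with an exact 95% interval of 0.0169 to 0.68 for counting error. For the second comparison it was -1.10 per the authors' deposited table (adjusted p = 1), on 9 reads against 14, a ratio per library of 0.482 (0.184 to 1.2).

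Lck and Lat act one after the other in the antigen receptor pathway and moved apart. Lck stood at 2.31, 9.88 and 13.5 CPM in the first numerator, second numerator and denominator groups. In the first comparison of the authors' deposited table its log2 fold change was -2.55 (adjusted p = 0.00558), on 4 reads against 21, a ratio of 0.19 with an exact 95% interval of 0.0475 to 0.565 for counting error. In the second it was -0.45 per the authors' deposited table (adjusted p = 1), on 22 reads against 23 over 4 and 3 libraries, a ratio per library of 0.717 (0.381 to 1.35).

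Lat stood at 112, 19.7 and 24.4 CPM in the first numerator, second numerator and denominator groups, the reverse order of Lck at the ends. Its log2 fold change of 2.20 in the first comparison of the authors' deposited table (adjusted p = 1.6e-14) remained above 0 at equal totals, at 0.70. Between the second pair of groups it was -0.29 per the authors' deposited table (adjusted p = 1). Lat therefore had the smallest p of the 10 and was the 1 gene of the 10 that was higher on both scales.

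Megakaryocyte and platelet genes were higher in the same group as Lat, in which 18.8% of all genes were higher and 3.49% lower. Of 14 megakaryocyte markers 13 were higher and none lower in the first comparison, all 13 also at equal totals, the median log2 fold change being 2.93. Their derived levels sum to 2250 CPM in the first numerator group, 225 CPM in the second numerator group and 297 CPM in the denominator group, and all 14 markers had a row. In the platelet collagen receptor pathway, which signals through LAT, 7 of 13 genes with a row were higher and 1 lower, 3 of the 7 also at equal totals. Clec1b, the platelet podoplanin receptor that uses the same pathway, had a log2 fold change of 4.20 per the authors' deposited table (adjusted p = 2.2e-13) and Lyn, a kinase of the Src family, 2.17 (adjusted p = 1.1e-08). Fcer1g, the signalling chain of the collagen receptor and of Fc receptors, stood at 2.49 per the authors' deposited table (adjusted p = 7.8e-13). The part of megakaryocytes in the Lat value was not tested, and in bulk RNA more cells of a type and more RNA per cell cannot be told apart. RefSeq places a microRNA gene within Lat (Mir7058) and another within Lck (Mir8119), and reads of these cannot be told apart from those of their hosts here.

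The promoter windows of this pair are printed because the genes moved apart. Lck has an upstream and a downstream window, and the capitals mark the same letters as above.
Lat (chr7:126369519-126369818, minus strand): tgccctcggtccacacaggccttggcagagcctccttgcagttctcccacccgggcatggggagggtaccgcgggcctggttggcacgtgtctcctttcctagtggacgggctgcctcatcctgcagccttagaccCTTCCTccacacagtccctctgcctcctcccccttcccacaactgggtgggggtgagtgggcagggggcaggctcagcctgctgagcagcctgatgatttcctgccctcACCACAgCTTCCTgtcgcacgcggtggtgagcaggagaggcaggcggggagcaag
Lck, upstream window (chr4:129573592-129573891, minus strand): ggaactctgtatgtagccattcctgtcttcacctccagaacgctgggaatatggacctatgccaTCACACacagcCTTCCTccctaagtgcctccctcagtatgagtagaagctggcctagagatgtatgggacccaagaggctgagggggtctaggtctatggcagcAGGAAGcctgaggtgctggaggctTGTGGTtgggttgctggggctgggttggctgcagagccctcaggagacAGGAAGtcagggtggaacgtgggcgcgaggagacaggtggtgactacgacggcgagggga
Lck, downstream window (chr4:129558323-129558622, minus strand): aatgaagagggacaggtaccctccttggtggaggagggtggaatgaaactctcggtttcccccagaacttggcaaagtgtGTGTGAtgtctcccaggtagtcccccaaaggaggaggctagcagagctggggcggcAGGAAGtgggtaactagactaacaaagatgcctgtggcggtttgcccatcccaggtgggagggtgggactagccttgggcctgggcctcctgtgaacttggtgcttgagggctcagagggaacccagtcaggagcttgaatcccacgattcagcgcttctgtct
The Lat window holds ETS letters at a pair of places and RUNX letters once, with no T-box letters. Both Lck windows hold ETS and T-box letters, and only the upstream of these windows holds RUNX letters. The table gives a single row for Lck, so use of the windows cannot be compared.

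Thy1 and Cd2 are surface proteins of T cells, Thy1 a small glycolipid-anchored protein that some NK cells, progenitors and stromal cells also carry, and Cd2 an adhesion receptor that binds CD48 in mice. Thy1 stood at 0.487, 5.73 and 8.32 CPM in the first numerator, second numerator and denominator groups. Its log2 fold change in the first comparison of the authors' deposited table was -4.10 (adjusted p = 0.0104), on 1 read against 13, a ratio of 0.0769 with an exact 95% interval of 0.00181 to 0.512 for counting error. In the second it was -0.56 per the authors' deposited table (adjusted p = 1), on 13 reads against 14 over 4 and 3 libraries, a ratio per library of 0.696 (0.301 to 1.6).

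Cd2 stood at 1.42, 0.847 and 1.98 CPM in the first numerator, second numerator and denominator groups, lowest in the second numerator group, as Lat also was. Its log2 fold changes of -0.48 and -1.20 per the authors' deposited table had p-values of 1 and 0.736, on 2 reads against 3 in each comparison, ratios per library of 0.667 (0.0557 to 5.82) and 0.5 (0.0418 to 4.36). No difference of Cd2 was detectable at this depth.

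**Figure D4:**
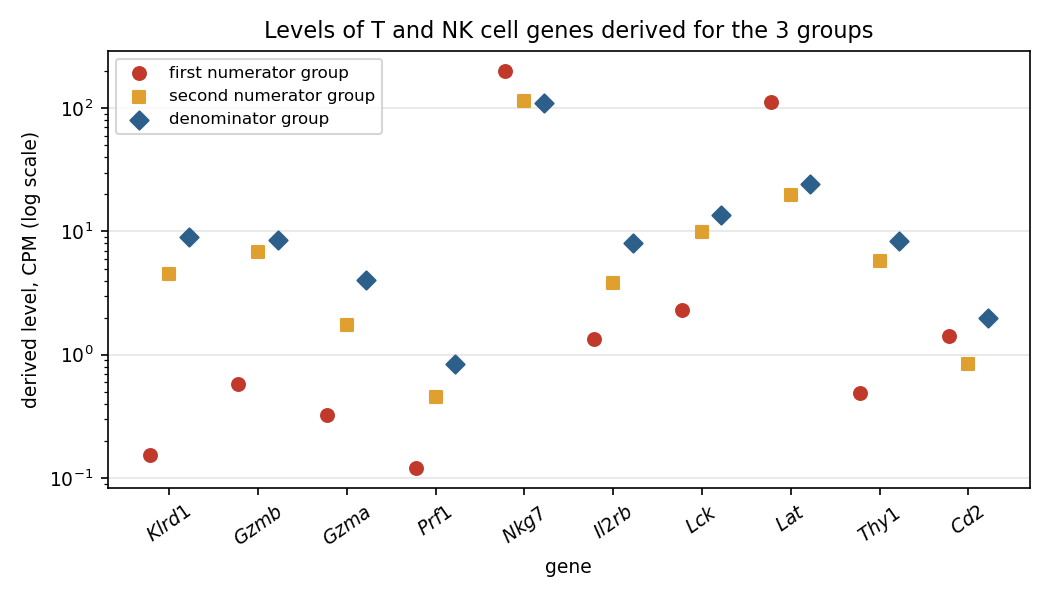
Level of each gene (CPM, log scale) derived for the first numerator, second numerator and denominator groups from the deposited means and fold changes. The first numerator group is lowest for 7 genes, highest for Lat at 112 CPM and Nkg7 at 202 CPM on the deposited scale (Nkg7 is lower at equal totals), and the second numerator group is lowest for Cd2 and Lat.

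Per kilobase of transcript the genes ranked below Nkg7 and Lat differently in each group. In the denominator group Klrd1 came next at 9.81 CPM per kilobase, followed by Lck at 6.17 and Gzmb at 5.98, and in the first numerator group Cd2 at 1.24 and Lck at 1.06 stood next, on 2 and 4 reads. With so few reads the order of neighbours below Nkg7 and Lat cannot be read. Whether the deposited CPM had been scaled by length is not stated in the sources at hand.

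Other T and NK cell genes included higher and lower ones. Of 134 such genes in 7 lists, 104 had a row in the table, and in the first comparison 24 of these were higher and 10 lower, the median log2 fold change being -0.43. Over all genes 18.8% were higher and 3.49% lower, and whether the lists differ from these shares was not tested. At equal totals 11 of the 24 stayed above 0 and 13 did not. None of the 104 passed in the second comparison, where their median was -0.16 and 1, the NK receptor gene Klra8, had an unadjusted p under 0.05 (log2 fold change of -1.96, p = 0.0395, per the authors' deposited table).

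Genes of the antigen receptor itself were sparse. Of 15 genes of the receptor complex, coreceptors and costimulators 9 had a row, and the rest, among them the CD3 chain genes Cd3d, Cd3e and Cd3g with Cd8a, had none in the table used here. Cd27, a costimulator also found on early progenitors, and Cd7 were lower, at -1.08 (adjusted p = 0.00155) and -1.60 (adjusted p = 0.0384) per the authors' deposited table. Cd4, the coreceptor of helper T cells that some mouse dendritic cells also carry, was higher at 3.75 per the authors' deposited table (adjusted p = 1.4e-07). The 7 T cell markers, of which 3 had a row, sum to 43.2 CPM in the first numerator group, 5.11 CPM in the second numerator group and 8.41 CPM in the denominator group, and Cd4 alone accounts for 40.5 CPM of the first.

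In antigen receptor signalling 8 of 25 genes were higher and 1, Plcg1, lower, but 7 of the 8 lay below 0 at equal totals. Beside these counts, 18.8% of all genes were higher and 3.49% lower. Fyb, an adaptor that links the receptor to integrins, stood at 1.69 per the authors' deposited table (adjusted p = 2.8e-09) and was the 1 that stayed above 0, at 0.19. Grb2, Lcp2 and Fyn, whose products are shared with other blood cells, stood at 1.45, 1.33 and 1.19 per the authors' deposited table and at -0.04, -0.16 and -0.31 at equal totals.

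NK receptor genes and the adaptors they use differed. Of 20 genes with a row 5 were higher, all also at equal totals, and 1 was lower, beside 18.8% and 3.49% of all genes. Tyrobp, Fcer1g and Fcgr3, which myeloid cells use as well, stood at 2.50 (adjusted p = 1.5e-13), 2.49 and 2.08 per the authors' deposited table. Sh2d1b1, an adaptor of SLAM receptors, stood at 3.28 (adjusted p = 4.5e-09) and Klrc1, whose product NKG2A pairs with CD94, at 2.27 (adjusted p = 0.0183) per the authors' deposited table. Klrc1 is near-identical to Klrc2 in parts, so the split of reads between them is uncertain. Klrb1f was lower at -2.77 per the authors' deposited table (adjusted p = 3.5e-05). None of the 5 defining NK cell markers with a row passed. Ncr1, Klrb1c, Klre1 and Eomes lay at -1.75, -3.81, -1.79 and -2.45 per the authors' deposited table. Klrk1, whose product is the activating receptor NKG2D, lay at 1.20 per the authors' deposited table and at -0.29 at equal totals. Klrc2 and Klra3, receptor genes outside the marker set, lay at 1.43 and 1.48 per the authors' deposited table without passing. At equal totals both lay below 0, at -0.06 and -0.02. Klra7 and Klra8, also outside the marker set, lay at -4.72 and -4.04 per the authors' deposited table without passing. Of the 20 genes 11 lay below 0 on the deposited scale, the median log2 fold change being -1.04. Tbx21 had no row. The 6 NK cell markers, 5 with a row, sum to 17.8 CPM in the first numerator group, 10.3 CPM in the second numerator group and 20.7 CPM in the denominator group. Klrk1 alone accounts for 14.7, 4.12 and 6.39 CPM of these sums.

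Among genes of granules and their release 4 of 14 were higher and none lower, beside 18.8% higher and 3.49% lower over all genes. Lamp1, a lysosomal membrane protein, Srgn, the granule proteoglycan, and Ctsc, the protease that activates granzymes and neutrophil proteases, stood at 2.34 (adjusted p = 3.9e-11), 1.95 and 2.35 per the authors' deposited table, and all 3 stayed above 0 at equal totals. The fourth, Stxbp2, stood at 0.75 per the authors' deposited table (adjusted p = 0.0322) and at -0.74 at equal totals. Ifng, Fasl and the granzyme genes Gzmc to Gzmg and Gzmk had no row in the table used here.

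Transcription factors lay mostly on the lower side, with 5 of 12 lower and 1 higher and a median of -1.91. For these and the next lists the shares over all genes were 3.49% lower and 18.8% higher. Notch1, which starts the T cell program, and its downstream factors Lef1 and Tcf7 stood at -2.24 (adjusted p = 0.00022), -3.71 (adjusted p = 0.0003) and -2.92 (adjusted p = 0.00156) per the authors' deposited table. Id2, which NK and other innate lymphoid cells need but which myeloid cells also express, stood at 2.23 (adjusted p = 9.1e-09) per the authors' deposited table. In the cytokine list 1 of 15 genes was higher, Il21r at 1.03, which lay at -0.46 at equal totals, and 1 lower, Il7r at -3.16 (adjusted p = 0.00017), both per the authors' deposited table. Il7r encodes the interleukin-7 receptor of early lymphoid cells. For CD2 partners and the SLAM family 4 of 9 were higher and none lower, and all 4 (Cd84, Ly9, Cd2ap and Cd48) lay below 0 at equal totals.

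**Figure D5:**
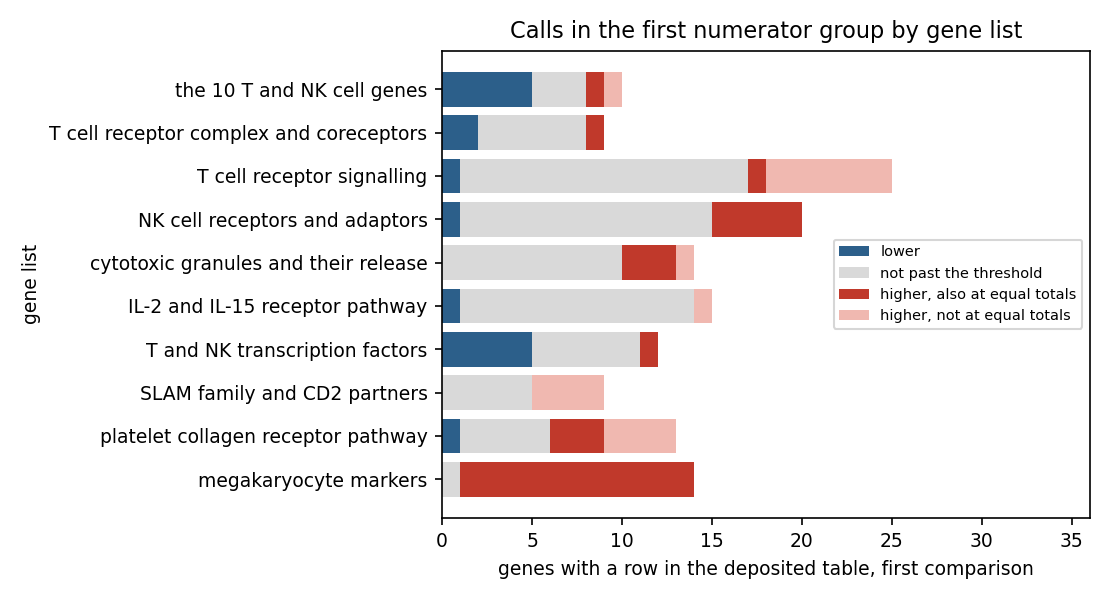
Number of genes with a row per list that were lower, did not pass, or were higher in the first numerator group, the higher ones divided by whether the log2 fold change stays above 0 at equal group totals. Among the 10 genes 5 were lower, while of 14 megakaryocyte markers 13 were higher on both scales.

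Markers of other cells moved in the same comparison, in which 18.8% of all genes were higher and 3.49% lower. Of 9 B cell and pre-B genes with a row 6 were lower and none higher, and their derived levels sum to 214 CPM in the first numerator group, 376 CPM in the second numerator group and 449 CPM in the denominator group. Of 7 early lymphoid genes 5 were lower and none higher, with sums of 37.9, 175 and 188 CPM in the same order of groups. Dntt, which adds bases to rearranging receptor genes, stood at -2.92 (adjusted p = 1.1e-13) and the recombinase gene Rag1 at -3.26 (adjusted p = 0.00504) per the authors' deposited table. Of 8 mast cell and basophil genes 3 were lower and none higher, with sums of 235, 329 and 334 CPM, and Gzmb is also expressed by mouse mast cells. Of 6 plasmacytoid dendritic cell genes 2 were higher, neither at equal totals, and none lower, with sums of 1880, 1020 and 1000 CPM. Ly6c2 alone accounts for 1540, 831 and 814 CPM of these sums. Siglech and Tcf4 lay at -2.41 and -0.89 per the authors' deposited table without passing, the only 2 of the 6 below 0. The part of these cells in the 5 lower genes was not tested. Of 5 progenitor genes, not all of which belong to the sorting gate, 1 was higher and none was lower. The higher gene was the myeloid peroxidase gene Mpo at 2.40, also above 0 at equal totals. The other 4 did not pass. Kit and Cd34 lay at -0.60 and -0.69 per the authors' deposited table (adjusted p = 0.128 and 0.11), and at -2.09 and -2.18 at equal totals. Ly6a, which encodes Sca-1, and Kdr lay at 0.43 and 1.26 per the authors' deposited table (adjusted p = 0.402 and 0.617), and at -1.06 and -0.23 at equal totals. Kdr stood at 2.24, 0.378 and 0.938 CPM in the first numerator, second numerator and denominator groups.

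Genes whose values were most like those of the 7 called genes were sought by the Euclidean distance over 4 values, the log2 fold change and mean level in each comparison. The nearest were Sit1 to Klrd1 (distance of 1.37), Kcng1 to Gzmb (0.368) and to Thy1 (0.546), Uchl1 to Il2rb (0.533), Jakmip1 to Lck (0.303), D14Ertd449e to Lat (0.218) and Serpinb1a to Nkg7 (0.121). Low genes share the same few steps of reads, and the comparisons share a group, so these distances describe the table only.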

How the data were processed

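Per library 0.1 ug of total RNA entered an Illumina TruSeq preparation, per the labels' protocols. Libraries were assigned to groups from their titles. Bowtie 0.12.2 and the build mm8 are named in the submitters' processing notes without roles. The depth of each library, and the counting and test programs, are not stated in the sources at hand. Per the file headers the table holds log fold change, average log CPM, p-value and FDR for each of 2 comparisons. The fold changes and means deposited by the authors were taken as log2, because levels derived under base 2 match between comparisons. The adjusted p-values deposited by the authors equal the Benjamini-Hochberg adjustment of their p-values (largest difference 5.2e-14).

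Group levels were derived from mean and fold change with the numerator weights that best match the shared side (0.48 and 0.59), over genes above 3 log2 CPM. Reads were matched with exact binomial tails (scipy 1.17.1, Python 3.11.15), trying up to 45 reads within 1.5% of the p. Tested on simulated data, the match returned the reads of 100.0% of genes with a p under 0.99 in the first comparison. In the second it returned those of 99.96%. These data held 3281 genes for the first comparison and 3399 for the second, before the limit on p. The simulated p-values and fold changes were made with the formulas that the match itself uses, so high shares were built in. The shares describe the matching step only. Whether the deposited p-values came from such binomial tails was not tested by them. Intervals cover counting error only. Transcript lengths are the longest protein-coding transcript of GENCODE M21. Of all gene names 99.1% match RefSeq on GRCm38.

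The genes and lists were chosen with earlier results of these data known. Named are the 10 genes, up to 4 called genes with the smallest p per list, and the 3 nearest genes, of which the first is printed. Other genes without a call, with Plcg1, Klrb1f, Klrc1, Cdc20b, Mir7058 and Mir8119, were named after their values were seen. Alternatives were other thresholds, the Benjamini-Yekutieli adjustment, a minimum of 1 CPM, centring, equal totals and a minimum fold change.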

Additional observations from a re-analysis of the deposited data

How the results depend on the processing

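The count of 7 called genes among the 10 in the first comparison lay between 5 and 8 at adjusted p thresholds of 0.01 and 0.10, with a minimum of 1 CPM, centring, a log2 fold change over 1 in size, or the direction kept at equal totals. With the Benjamini-Yekutieli adjustment it was 2, Klrd1 and Lat. Gzma passed only at 0.10, and Thy1 and Il2rb did not pass at 0.01. In the second comparison the authors' p-values gave 0 calls under all 7 alternatives, and 0 at an unadjusted p under 0.05. No count by another tool could be made from this table. Of 40 rescaled fold changes of the 10 genes 39 kept their sign, and Nkg7 in the first comparison turned to -0.61 at equal totals. The count of 34 called genes in the 7 wider lists fell to 21 when only those keeping their direction at equal totals were counted. Equal weights moved derived levels by at most 7.2%. The equal-totals counts and the alternatives for the wider lists were chosen after seeing the data. No paired analysis was possible because the table holds no value per library, and leaving out replicates was not run for the same reason. Depth limits Prf1, Cd2 and Gzma most, with 1, 5 and 7 reads in the first comparison.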
